A study of Mus musculus with 3 samples.

Results

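Peritubular myoid cells are the flat, smooth-muscle-like cells that wrap each seminiferous tubule of the testis. They were picked out of single-cell RNA libraries of adult mouse testis by 5 genes of the smooth muscle contractile apparatus, Acta2, Myh11, Tagln, Myl9 and Cnn1. A barcode was kept if it held 1000 or more UMIs (unique molecular identifiers, which count each captured RNA molecule once) from 500 or more genes, with mitochondrial genes giving no more than 10%. A kept barcode was a member if the 5 genes together gave at least 5 UMIs and at least 20 per 10000 UMIs, and more UMIs than Insl3, Cyp17a1, Cst9, Clu, C1qa and Lyz2 together, which mark Leydig cells, Sertoli cells and macrophages. This left 324 members among 28485 kept barcodes: 106 of 8134 in wildtype replicate 1, 112 of 8337 in wildtype replicate 2 and 106 of 12014 in the knockout library.

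The series compared testes of adult wildtype mice with testes of adult mice carrying a conditional knockout of Tex10, which encodes a nuclear protein described in ribosome biogenesis. Each wildtype library came from 1 mouse and the knockout library from the pooled cells of 2 mice, and all carry the strain label C57BL/6N. The Cre driver and the deleted exons are not given in the sources used here, so that it is unknown whether the gene was targeted in myoid cells at all. With 1 knockout library there was no test between genotypes, and no p-value is given: every level stands per library with an exact Poisson 95% interval where one is printed, which covers counting error only.

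Myoid cells contract to move sperm and fluid along the tubule, and together with Sertoli cells they lay down the basement membrane on which spermatogonia sit. They respond to endothelin and Sertoli-derived hedgehog ligand, and they secrete factors that act on spermatogonial stem cells, among them GDNF and CSF1. Smooth muscle genes such as Acta2 are driven by serum response factor (SRF) and its partner myocardin through a short DNA element called the CArG box.

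The deposited libraries held 93418341, 96001773 and 147783171 UMIs in 9967, 10153 and 12918 barcodes, and the members gave 704415, 661097 and 981997 of these UMIs (wildtype replicate 1, wildtype replicate 2 and knockout, an order kept for every set of 3 values that follows). The median member had 6014, 5282 and 7388 UMIs and 2770, 2491 and 3102 genes, and a median of 4.40%, 4.51% and 3.54% mitochondrial UMIs. The 5 marker genes made up a median of 184, 176 and 176 per 10000 UMIs, values that chose the members and are given as a description. The threshold lay in a thinly filled range: the lowest members stood at 22.04, 23.75 and 22.61 per 10000, and the highest barcodes that had enough marker UMIs but fell short stood at 13.5, 8.98 and 19.1. Only 1, 2 and 9 barcodes missed the rule on this score, none missed it on the genes of the other cell types, and 92.7%, 92.7% and 91.0% of kept barcodes held no marker UMI at all.

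2 kinds of member stood apart. The first were deep barcodes of 15000 UMIs or more, 4, 4 and 8 in number, which held 14.6%, 18.8% and 28.7% of all member UMIs. In these, 10 germ cell markers such as Prm1 and Tnp2 took 21.1%, 15.05% and 15.99% of UMIs, against 1.15%, 2.10% and 1.29% in the other members. The deep barcodes therefore weigh most in the knockout sums, and values without them (members under 15000 UMIs, a limit chosen after the data were seen) are given beside the results. The second kind were 1, 1 and 2 barcodes with 10 or more UMIs of vascular smooth muscle and pericyte genes, described below. No barcode sequence was a member in more than 1 library, although 28, 30 and 27 barcode sequences were shared between pairs of libraries over all deposited barcodes.

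**Figure D1:**
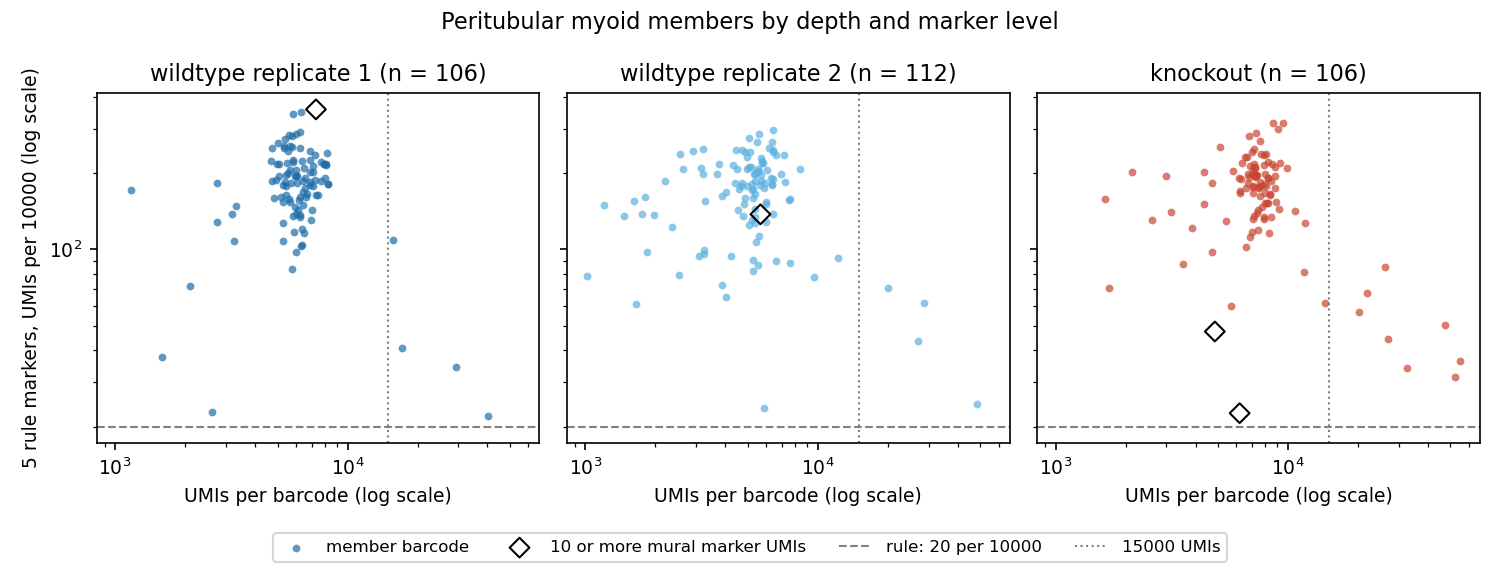
Each point is 1 member barcode, plotted by its UMI total (x axis, log scale) and the UMIs of the 5 rule markers per 10000 UMIs (y axis, log scale), in a panel per library. Most members lie in a compact cloud near the median totals of 6014, 5282 and 7388 UMIs; the deep barcodes to the right of the dotted line at 15000 UMIs have low marker levels, and open diamonds mark the 4 barcodes with 10 or more mural marker UMIs.

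The rule markers themselves separated members from other barcodes by orders of magnitude. Acta2, the smooth muscle actin, stood at 8756, 7808 and 7256 CPM (UMIs per 1000000 UMIs of the members) and at 2.04, 1.49 and 1.88 CPM in all other kept barcodes. Myh11, the smooth muscle myosin heavy chain, stood at 2107, 1673 and 1974 CPM, Tagln (transgelin) at 2457, 2069 and 1829 CPM, the regulatory light chain Myl9 at 3268, 3071 and 2680.2 CPM and the calponin Cnn1 at 412, 374 and 332 CPM. In the other kept barcodes none of these 4 exceeded 8.23 CPM. These differences follow from the choice of members and carry no test.

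The promoters of these markers are shown because the rule rests on these 5 genes, which are textbook targets of the CArG element. Acta2 lies on the minus strand (chromosome 19, 34241090 to 34255590), and Myl9 (chromosome 2, 156775420 to 156781658) and Cnn1 (chromosome 9, 22099216 to 22109630) lie on the plus strand, all protein-coding, by GENCODE on GRCm38. The 250 bases before the RefSeq start are given 5′ to 3′ on the gene's strand, from RefSeq on GRCm38.p6 (chr19:34255374-34255623, chr2:156775214-156775463 and chr9:22099003-22099252). The gene coordinates above start further upstream, within each of these windows. Capitals mark every CArG-like match, defined as CCNNNNNNGG with at most 1 G or C among the 6 inner bases; the pattern reads the same on both strands.
Acta2 promoter: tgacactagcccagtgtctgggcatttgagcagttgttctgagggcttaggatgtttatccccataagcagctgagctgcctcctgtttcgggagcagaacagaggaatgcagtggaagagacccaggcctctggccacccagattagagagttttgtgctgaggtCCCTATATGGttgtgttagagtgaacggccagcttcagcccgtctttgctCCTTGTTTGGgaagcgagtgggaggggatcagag
Myl9 promoter: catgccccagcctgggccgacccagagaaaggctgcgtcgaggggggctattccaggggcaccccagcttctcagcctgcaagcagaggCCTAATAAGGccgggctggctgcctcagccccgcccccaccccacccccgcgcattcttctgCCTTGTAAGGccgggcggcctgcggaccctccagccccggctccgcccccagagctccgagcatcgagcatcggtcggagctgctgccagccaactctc
Cnn1 promoter: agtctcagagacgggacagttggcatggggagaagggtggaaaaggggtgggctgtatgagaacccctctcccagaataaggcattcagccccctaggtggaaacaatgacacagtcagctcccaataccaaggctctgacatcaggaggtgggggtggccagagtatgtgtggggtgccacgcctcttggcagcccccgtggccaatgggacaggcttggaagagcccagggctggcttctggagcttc
Acta2 held 2 matches, starting 84 and 34 bases before the start, and Myl9 held 2, at 161 and 99 bases. The Myl9 match at 161 bases had only A and T inside, the strict form of the element. No match lay in the window of Cnn1, which says only that these letters were not found there. Of 27025 genes with a window of 300 bases (250 before the start to 50 after it), 3050 (11.3%) held at least 1 match. Among the contractile genes outside the rule, 25 of 26 had a window and 5 of these held a match: Myl6, Vcl, Cnn2, Pdlim3 and Cacna1c. Strict matches were present in 1.81% of all genes and in 3 of the 25, which were Myl6, Vcl and Cnn2. Tagln and Myh11 were not matched by symbol.

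Beyond the 5 markers, 788 of the 2929 genes (26.9%) that reached 50 CPM in the members of every library were at least 4-fold higher in members than in the other kept barcodes of each library. By the lowest of the 3 ratios, the 15 leading genes outside the rule were Tpm2, Ccn2, Sct, Fgl2, S100a6, Tpm1, Mfap4, Cyp26b1, Col4a4, Cald1, Csrp1, Tnnt2, Slc38a5, Des and Ckb. Tpm1, Tpm2, Cald1, Tnnt2 and Des encode proteins of the contractile apparatus and its scaffold, Csrp1 a LIM protein, Ccn2 a matricellular protein, and Mfap4 and Col4a4 matrix proteins. Of the others, Fgl2 encodes a fibrinogen-like protein, S100a6 a calcium-binding protein, Slc38a5 an amino acid transporter and Ckb a creatine kinase. As the members were chosen from the same counts, this is a description of the cells and not a test. The other kept barcodes mix all other cell types, so a gene high over them can be high in another somatic type too. In Leydig barcodes picked by their own markers (27, 30 and 67), 63.0%, 66.7% and 44.8% held Tpm2. For Sct these shares were 18.5%, 10% and 13.4% and for Cyp26b1 0% in each library. Sparc and Igfbp6, given below, were in 96.3%, 100% and 85.1% and in 85.2%, 76.7% and 61.2%.

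**Figure D2:**
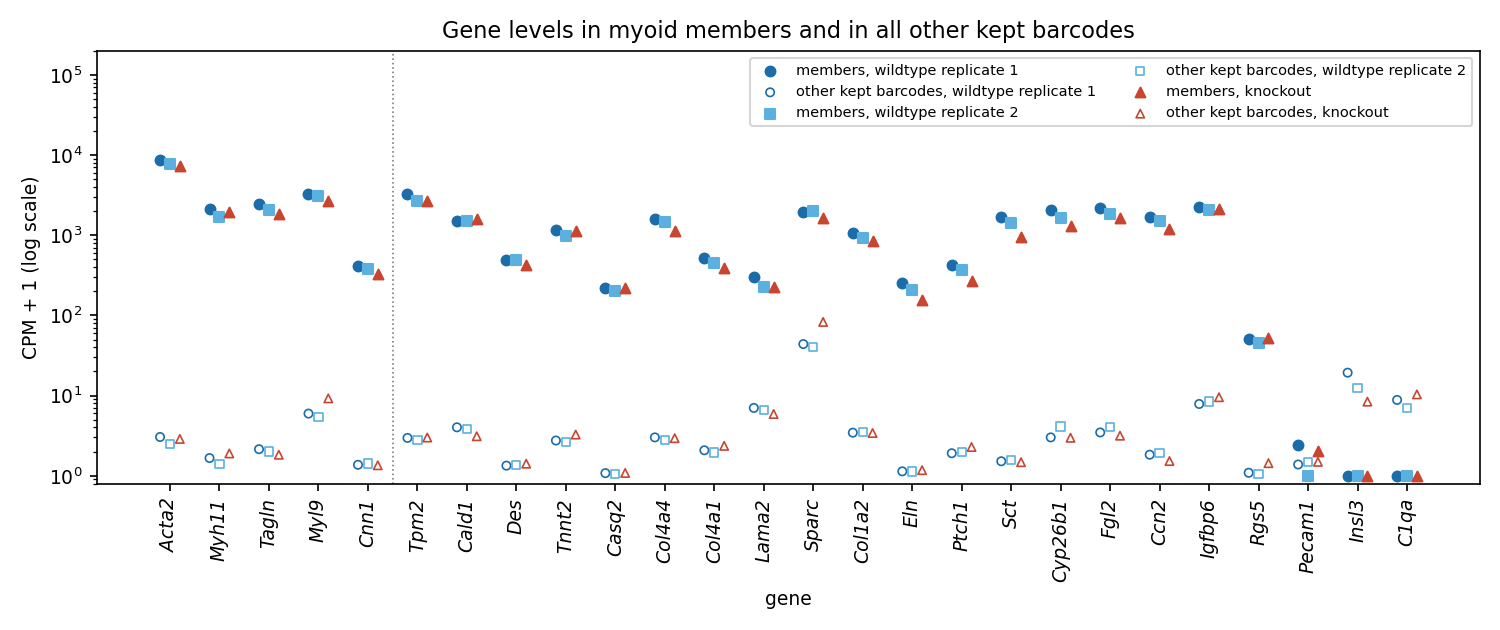
Levels of 26 genes (x axis) as CPM plus 1 on a log scale (y axis), in member barcodes (filled) and in all other kept barcodes (open) of the 3 libraries. The 5 rule markers stand left of the dotted line. Acta2 reached 8756 CPM in members of wildtype replicate 1 against 2.04 CPM in its other barcodes. Muscle, matrix and signalling genes were also higher in members than in the other kept barcodes, which mix all other cell types. Insl3 and C1qa, markers of Leydig cells and macrophages that the rule set against the 5 markers, were at 0 in the members of every library.

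The contractile genes outside the rule were broadly present. Of 26 listed, 22 reached 50 CPM in at least 1 library and 19 passed the 4-fold mark over other barcodes in every library. The tropomyosins Tpm2 and Tpm1, which regulate access of myosin to actin, stood at 3237, 2689 and 2693 CPM and at 2297, 2049.6 and 2081 CPM. Mylk, the kinase that triggers smooth muscle contraction by phosphorylating the light chain, stood at 1649.6, 1351 and 1187 CPM, against 11.0, 9.29 and 9.09 CPM elsewhere. Caldesmon (Cald1) stood at 1486, 1502 and 1607 CPM and the intermediate filament protein desmin (Des) at 486, 486 and 419.6 CPM. Some muscle genes better known from striated muscle were also high: Tnnt2, cardiac troponin T, stood at 1164, 967 and 1123 CPM and Casq2, the cardiac calcium store protein calsequestrin, at 219, 199.7 and 216 CPM. In Leydig barcodes picked by their own markers (27, 30 and 67) Tnnt2 was at 2.03, 0 and 2.61 CPM.

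The actin family was split. Acta2 was joined by cytoplasmic Actb at 3687, 3658 and 3592 CPM and Actg1 at 1552, 1479 and 1324 CPM, whereas skeletal Acta1 and cardiac Actc1 gave no UMI in any library. The enteric actin Actg2 stood at 443, 413 and 378 CPM but also at 147, 165 and 181 CPM in the other kept barcodes, so it separated members less than its relatives did. Actb and Actg1 share 24.2% and 47.3% of the 31-base words in their 3′ ends with other genes, so their levels are less certain. Among myosins, Myl6 stood at 3802, 2947 and 2919.6 CPM (23.3% of its words shared) and nonmuscle Myh9 at 79.5, 81.7 and 81.5 CPM, while Myh14 gave none.

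Basement membrane genes were led by type IV collagen and laminin chains. Col4a1 and Col4a2, which form the widespread collagen IV network, stood at 515, 445 and 384 CPM and at 406, 371 and 307 CPM. Col4a3 and Col4a4, partners in a network known from kidney and testis basement membranes, stood at 447, 413 and 245 CPM and at 1583, 1470.3 and 1139.5 CPM. These last 2 are not in the basement membrane list counted below and were chosen after their values were seen. Laminin chains were represented by Lama2 at 299.5, 227 and 224 CPM, Lamb1 at 253, 224 and 187 CPM and Lamb2 at 437, 334 and 319.8 CPM. By contrast, Lama4 gave 3, 4 and 4 UMIs, Lama5 gave 2, 2 and 2 and Col18a1 gave 2, 0 and 4. The linker nidogen-1 (Nid1) and the proteoglycan perlecan (Hspg2) stood at 175, 195 and 155 CPM and at 247, 213 and 175 CPM, and Sparc, a collagen-binding protein, at 1959, 2030.0 and 1641 CPM. Fibronectin (Fn1), often listed as a product of myoid cells, gave only 4, 4 and 3 UMIs, or 5.68, 6.05 and 3.06 CPM, which was no higher than the 6.05, 7.004 and 6.66 CPM of the other kept barcodes.

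Interstitial matrix genes were present as well. Fibrillar collagens Col1a2, Col1a1 and Col3a1 stood at 1069, 927 and 854 CPM, at 412, 351 and 279 CPM and at 396, 374 and 267 CPM. Elastic fibre genes Eln (elastin) and Fbln5 (fibulin-5) stood at 249.9, 209 and 157 CPM and at 324, 309 and 220.0 CPM, with elsewhere levels under 1 CPM for both. Timp3, a matrix-bound inhibitor of metalloproteinases, stood at 1228, 1340.2 and 1073 CPM. Tnc, an extracellular glycoprotein, gave no UMI, and Lum gave 0, 0 and 1.

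1 of the leading genes acts on retinoic acid, the vitamin A product that starts meiosis. Cyp26b1, which degrades it, stood at 2034, 1661 and 1292 CPM in members, against 11.1, 28.0 and 10.5 CPM in Sertoli barcodes (93, 59 and 231 barcodes of 3000 UMIs or more with Sertoli markers) and no UMI in Leydig barcodes. Its relatives Cyp26a1 and Cyp26c1 gave no UMI in members. The retinoic acid forming enzyme Aldh1a1 stood at 341, 312 and 241 CPM, well below its 7261, 4605 and 4474 CPM in Leydig barcodes. Sct, which encodes the peptide hormone secretin, stood at 1687, 1439 and 942 CPM in members and at 0.516, 0.557 and 0.477 CPM in all other kept barcodes.

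The secreted factors known for acting on stem cells gave few UMIs. Gdnf, the stem cell factor, gave 7, 3 and 13 UMIs in all members together, or 9.94, 4.54 and 13.2 CPM, against 0.325, 0.35 and 0.365 CPM in the other kept barcodes. Csf1 gave 33, 22 and 59 UMIs (46.8, 33.3 and 60.1 CPM) and Lif, a cytokine assigned to myoid cells, gave 3, 1 and 0. The IGF-binding proteins were unequal: Igfbp7 and Igfbp6 stood at 2856, 2432 and 1799 CPM and at 2270.0, 2057 and 2151 CPM, while Igfbp3 and Igfbp5 gave no UMI.

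Only some of the listed receptors gave more than a few UMIs. The endothelin receptor Ednra stood at 98.0, 109 and 118 CPM. The other endothelin receptor, Ednrb, gave 2, 3 and 15 UMIs, of which 8 in the knockout library came from its 2 barcodes with mural genes. Pdgfra stood at 186, 151 and 136 CPM. Of the 20 receptors listed, 5 gave no UMI in any library. These were receptors for oxytocin (Oxtr), noradrenaline (Adra1a and Adra1d), ATP (P2rx1) and angiotensin (Agtr1b). Noradrenaline and angiotensin have further receptors, Adra1b and Agtr1a among them, whose levels are not given here. Hedgehog response genes were present: the receptor and target Ptch1 stood at 430.1, 371 and 267 CPM, the inhibitor Hhip at 85.2, 80.2 and 57.0 CPM and the effector Gli1 at 36.9, 28.7 and 43.8 CPM, each against at most 1.28 CPM in the other kept barcodes. Leydig barcodes also held Ptch1, at 52.9, 36.9 and 47.8 CPM, and Pdgfra, at 36.6, 32.3 and 35.6 CPM, but no Hhip UMI.

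Among transcription factors, Myocd, the myocardin gene, stood at 51.1, 78.7 and 65.2 CPM and its partner Srf at 14.2, 15.1 and 15.3 CPM, a level like the 14.5, 14.2 and 9.04 CPM of the other kept barcodes. The LIM protein Fhl2 stood at 775, 584 and 879.8 CPM, Nr2f2 at 311, 340.3 and 279 CPM and Tcf21 at 179, 160.3 and 142 CPM. Immediate early genes were high in members of all 3 libraries: Fos stood at 2906, 2539.7 and 2919.6 CPM, Junb at 2145, 1858 and 2148 CPM and Jun at 1442, 1179.9 and 1572 CPM. Leydig barcodes held them too, with Fos at 1497, 746 and 826 CPM and Junb at 1009, 520.0 and 494 CPM. Of 18 early response and heat shock genes, 15 were at least 4-fold over other barcodes in each library, beside the 26.9% of all genes that reached 50 CPM.

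Markers of other cell types were counted in the members. The rule itself used Insl3, Cyp17a1, Cst9, Clu, C1qa and Lyz2, although no barcode missed it on these genes. The sums that hold them are descriptions and not an independent check of the members. Endothelial markers (8 genes) summed to 7.10, 6.05 and 8.15 CPM, with Cldn5 and Tek at 0. Macrophage markers (5 genes) summed to 7.10, 4.54 and 9.17 CPM, with C1qa, Lyz2 and Csf1r at 0. Leydig markers summed to 2.84, 1.51 and 11.2 CPM, with Insl3, Cyp11a1 and Hsd3b1 at 0. Insl3 and Lyz2 share 79.6% and 36.2% of the words in their 3′ ends with other genes, so their zeros are less certain. Sertoli markers summed to 251, 339 and 276 CPM, of which Aard gave 214, 237 and 215 CPM. Of the interstitial stromal markers, Tcf21, Pdgfra and Dcn were present and Ly6a and Dpt gave no UMI, while Cd34 stood at 48.3, 30.3 and 55.0 CPM. Germ cell markers summed to 40507, 45375 and 55138 CPM, and their part in the results below was not tested except by leaving out the deep barcodes and by taking these genes out of the totals. Leaving out the deep barcodes did not remove every member rich in these markers.

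Vascular smooth muscle cells and pericytes, which wrap blood vessels and are together called mural cells, share the rule's marker genes. 8 of their genes were counted: Rgs5, Notch3, Mcam, Cspg4, Abcc9, Kcnj8, Higd1b and Heyl. The 4 barcodes with 10 or more such UMIs held 48 in wildtype replicate 1, 37 in wildtype replicate 2, and 68 and 80 in the knockout library, whereas no other member exceeded 8, 4 and 6. Rgs5 gave 35, 29, 30 and 18 UMIs in these 4, and none in 105 of 105, 111 of 111 and 103 of 104 other members. The exception was a knockout barcode of 1699 UMIs with 2 Rgs5 UMIs, 1 Higd1b UMI and none of Sct, Cyp26b1 and Dpep1. With 3 mural UMIs it fell under the limit of 10 and was counted with the other members. The 4 barcodes were also the only members of 3000 UMIs or more without a single UMI of Sct, Cyp26b1 and Dpep1, of which the other members held a median of 26, 21 and 21 together. The knockout barcodes of this kind had no Acta2 UMI and scored 47.5 and 22.6 per 10000, while the wildtype ones had 103 and 4 Acta2 UMIs. On their markers these 4 barcodes go against the myoid label, and gene values that turn on them are given with and without them.

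**Figure D3:**
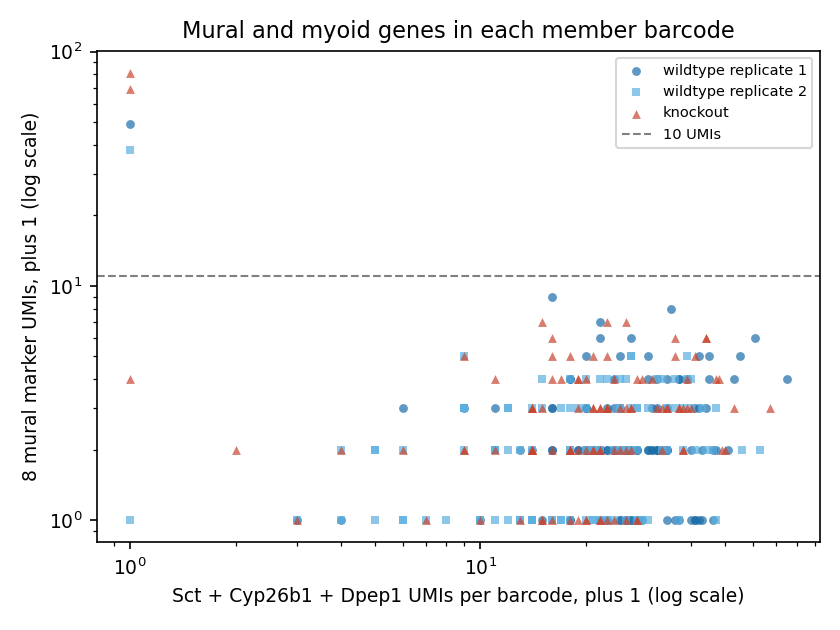
UMIs of the 8 mural markers (y axis) against UMIs of Sct, Cyp26b1 and Dpep1 together (x axis) in each member barcode, both plus 1 on log scales, with symbols for the 3 libraries. The 4 barcodes above the dashed line at 10 UMIs stand at the left edge with no UMI of the 3 myoid genes; the 2 other barcodes at that edge held under 3000 UMIs.

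Members of 3000 to 15000 UMIs (96, 93 and 93) varied in the level of the contractile genes. Across barcodes within a library, the summed share of the 5 rule markers and that of the other contractile genes had a Spearman rho of 0.65, 0.69 and 0.66. For interstitial matrix genes the values were 0.05, 0.36 and 0.28, and for basement membrane genes −0.14, 0.33 and 0.01. Barcodes of 1 library share their capture and their depth differs, so these are descriptions without a test. Splitting members under 15000 UMIs at the median marker score, the upper part had 23679, 22615 and 23393 CPM of other contractile genes and the lower part 19399, 16033 and 18357 CPM. The parts had similar depth, with medians of 6005 and 6012 UMIs in wildtype replicate 1, 5487 and 4993 in wildtype replicate 2, and 7244 and 7404 in the knockout library. For early response genes the log2 ratio of the upper over the lower part was 0.13, 0.16 and 0.27, for interstitial matrix genes 0.05, 0.41 and 0.25, and for basement membrane genes −0.08, 0.36 and −0.03, so that the basement membrane genes went both ways. Germ cell markers were higher in the lower part, at 11872 against 11154 CPM, 33262 against 10142 CPM and 15066 against 10815 CPM, and their part in these ratios was not tested.

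The members made up 1.30% of kept barcodes in wildtype replicate 1 (exact binomial 95% interval 1.07 to 1.57), 1.34% in wildtype replicate 2 (1.11 to 1.61) and 0.882% in the knockout library (0.723 to 1.07). The knockout share was thus below both wildtype shares, by 0.441 percentage points from their mean. The order depended on the denominator. Among barcodes of at least 5000 UMIs the shares were 2.71% (2.18 to 3.31), 1.66% (1.29 to 2.10) and 2.06% (1.67 to 2.52), which put the knockout library between the wildtype libraries. A further denominator was the 708, 554 and 982 barcodes that were members or passed the same floors with Leydig, Sertoli or macrophage markers, Sertoli barcodes of any depth included. Of these the members made up 14.97%, 20.2% and 10.8%. Counting Sertoli barcodes only from 3000 UMIs left 257, 242 and 465 barcodes and gave 41.2%, 46.3% and 22.8%. The median kept barcode held 2764, 4705 and 2840 UMIs, and the part of depth in these shares was not tested beyond that setting.

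Tex10, the targeted gene, gave 17, 11 and 24 UMIs in the members, or 24.1, 16.6 and 24.4 CPM, with intervals of 14.1 to 38.6, 8.31 to 29.8 and 15.7 to 36.4. The knockout level was not below either wildtype level and these intervals overlap, so no loss of Tex10 RNA was seen in the knockout members. A partial loss could be hidden by counting error at this depth. As the deleted exons are not given, these 3′ counts do not tell whether the transcripts were intact. In all other kept barcodes it stood at 44.7, 40.9 and 35.1 CPM.

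Between genotypes, few genes of the members differed beyond the size rule set for these libraries. With 1 CPM added to every level, a gene had to differ at least 2-fold from both wildtype libraries in 1 direction, and the smaller of its log2 ratios had to be 2 or more times that of wildtype replicate 2 over wildtype replicate 1. It also had to reach 50 CPM in some library, with a knockout interval that overlapped neither wildtype interval. Of 4068 genes tested, 42 (1.03%) passed it: 17 (0.418%) were higher in the knockout members and 25 (0.615%) were lower. In members under 15000 UMIs 40 of 4194 (0.954%) passed, 21 (0.501%) higher and 19 (0.453%) lower, and 28 genes passed in both, 12 higher and 16 lower. The results below name first the genes that passed in both.

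Among genes higher in the knockout members, Fmod (fibromodulin, a collagen-binding matrix proteoglycan, chromosome 1, 134037254 to 134048277) stood at 22.7 and 22.7 CPM in the wildtype members, with intervals of 13.0 to 36.9 and 12.7 to 37.4. It rose to 76.4 CPM (interval 60.1 to 95.7) in the knockout members, a log2 ratio of 1.71 against each wildtype library. Icam1, an adhesion molecule bound by leukocytes (chromosome 9, 21015985 to 21028817), stood at 15.6, 18.2 and 57.0 CPM and rose by log2 ratios of 1.80 and 1.60. Sytl2, a synaptotagmin-like protein of vesicle transport, rose from 29.8 and 21.2 to 80.4 CPM. Each of these 3 rose more in members under 15000 UMIs, with log2 ratios against the wildtype mean of 1.93, 2.02 and 1.82, and no single barcode gave more than 4, 7 and 3 of their knockout UMIs. None of the 3 passed when all members with 2 or more mural marker UMIs were left out, which kept 65, 70 and 49 members; the log2 ratios were then 1.38, 1.29 and 1.34. The secreted BMP antagonist Nbl1 rose from 24.1 and 30.3 to 69.2 CPM and the ligand Wnt6 from 25.6 and 19.7 to 58.0 CPM. The noncoding RNA Snhg12, host of small nucleolar RNAs, rose from 18.5 and 25.7 to 87.6 CPM, with log2 ratios of 2.19 and 1.73. Among the members with under 2 mural marker UMIs Snhg12 passed, and Nbl1 and Wnt6 did not.

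The genes higher in the knockout members that touched the mural barcodes need the second comparison. Abcc9, a subunit of ATP-sensitive potassium channels, stood at 19.9, 21.2 and 57.0 CPM, but 33 of its 56 knockout UMIs came from the 2 mural barcodes. Rgs4, a regulator of G protein signalling, stood at 25.6, 24.2 and 56.0 CPM, with 9, 6 and 20 UMIs of 18, 16 and 55 in the mural barcodes. Nrp1, a semaphorin and VEGF co-receptor, stood at 19.9, 13.6 and 50.9 CPM, with 5 of its 50 knockout UMIs there. None of these 3 passed the rule once the 4 mural barcodes were left out. The log2 ratio of Abcc9 against the wildtype mean then went from 1.43 to 0.18. That of Nrp1 went only from 1.55 to 1.53, with its level under the 50 CPM floor, and Nrp1 passed again in members under 15000 UMIs without the mural barcodes, at 1.70. Rgs4 then gave 9, 10 and 35 UMIs, also under the floor.

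Among genes lower in the knockout members, Ccn1, a matricellular protein induced by mechanical load in many cells (chromosome 3, 145646976 to 145649981), stood at 968 CPM (897 to 1044), 994 CPM (919 to 1073) and 435 CPM (395 to 478). It fell, with log2 ratios of −1.15 and −1.19, and its relative Ccn2 stood at 1689, 1514 and 1187 CPM without passing the rule. Dpep1, a membrane dipeptidase (chromosome 8, 123186242 to 123201812) that stood at 1.17, 1.19 and 1.40 CPM in the other kept barcodes, fell from 403 and 375 to 165 CPM in the members. Cyb561, a transmembrane electron carrier, fell from 249.9 and 194 to 68.2 CPM. Fam89a had the lowest ratio among the genes that passed here and did not fall in the other kept barcodes too. Its wildtype levels were 231 and 194 CPM (intervals 197 to 269.8 and 162 to 230.2), and the knockout level was 37.7 CPM (interval 26.5 to 51.9). This is a fall with log2 ratios of −2.59 and −2.33. Hpgd, which inactivates prostaglandins, fell from 128 and 118 to 45.8 CPM, and Nt5e (CD73), which forms extracellular adenosine, from 73.8 and 72.6 to 33.6 CPM. Dpep1 and Nt5e did not pass among the members with under 2 mural marker UMIs, where Ccn1, Cyb561, Fam89a and Hpgd did. Ccn1 did not pass with the member rule loosened to 10 per 10000 or with the mean of barcode CPM. Neither Ccn1 nor Dpep1 passed in members under 15000 UMIs without the mural barcodes. The small GTPase Arl4d fell from 114 and 112 to 39.7 CPM and the linker histone Hist1h1c from 169 and 169 to 56.0 CPM. 5 further genes of less known role were lower in both sets of members, which were 2010007H06Rik, 4931414P19Rik, Cmtm7, Gm49708 and Tepp, and Olfr889 was higher in both. 2010007H06Rik is annotated as antisense, and the 3′ ends of Gm49708 and Olfr889 are shared in part with other genes, so their counts are uncertain.

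7 of the 42 genes moved at least 2-fold the same way in all other kept barcodes. Rpl29, a protein of the large ribosomal subunit, stood at 873, 876 and 113 CPM in members and at 841, 849.9 and 88.2 CPM elsewhere, and 57.7% of the words in its 3′ end are shared with other genes. Gm8797 and Gm10076, with 93.0% and 84.2% of words shared, fell with it. Gm42418 stood at 10636, 7556 and 22564 CPM in members and at 3018, 1707 and 7934 CPM elsewhere, and Gm4665, annotated as antisense, at 25.6, 28.7 and 169 CPM and at 33.2, 35.4 and 215 CPM. The other two were Pccb and Col16a1. These 7 genes thus differed between the libraries in other cells too, and not in the myoid members alone.

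14 genes passed with all members but not with the deep barcodes left out. Olfr1369-ps1 owed its place to 1 barcode: all 51 knockout UMIs came from it and the wildtype libraries had none. Col16a1 stood at 148, 136 and 21.4 CPM, with 77 and 55 of its 104 and 90 wildtype UMIs in the deep barcodes, and at 44.9, 65.2 and 25.7 CPM without them. Slc2a3, a glucose transporter, stood at 41.2, 40.8 and 103 CPM with all members and at 48.2, 44.7 and 64.3 CPM without the deep ones. The deep ones held 56 of its 101 knockout UMIs, 49 of them in 1 barcode. Vcam1, an adhesion molecule, stood at 133, 116 and 57.0 CPM and at 141, 139.7 and 72.9 CPM without them, a log2 ratio that shrank only from −1.12 to −0.94 against the wildtype mean. The rest were 1700029P11Rik, 4930527J03Rik, Actn3, Cenpf, Cmtm8, Hamp2, Hexim1, Paqr7, Pccb and Porcn. Some of these ratios changed little: against the wildtype mean that of Actn3 went from −1.78 to −1.53, that of 4930527J03Rik from −1.59 to −1.39 and that of Porcn from −1.16 to −1.17, while that of 1700029P11Rik went from 1.13 to 0.50.

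**Figure D4:**
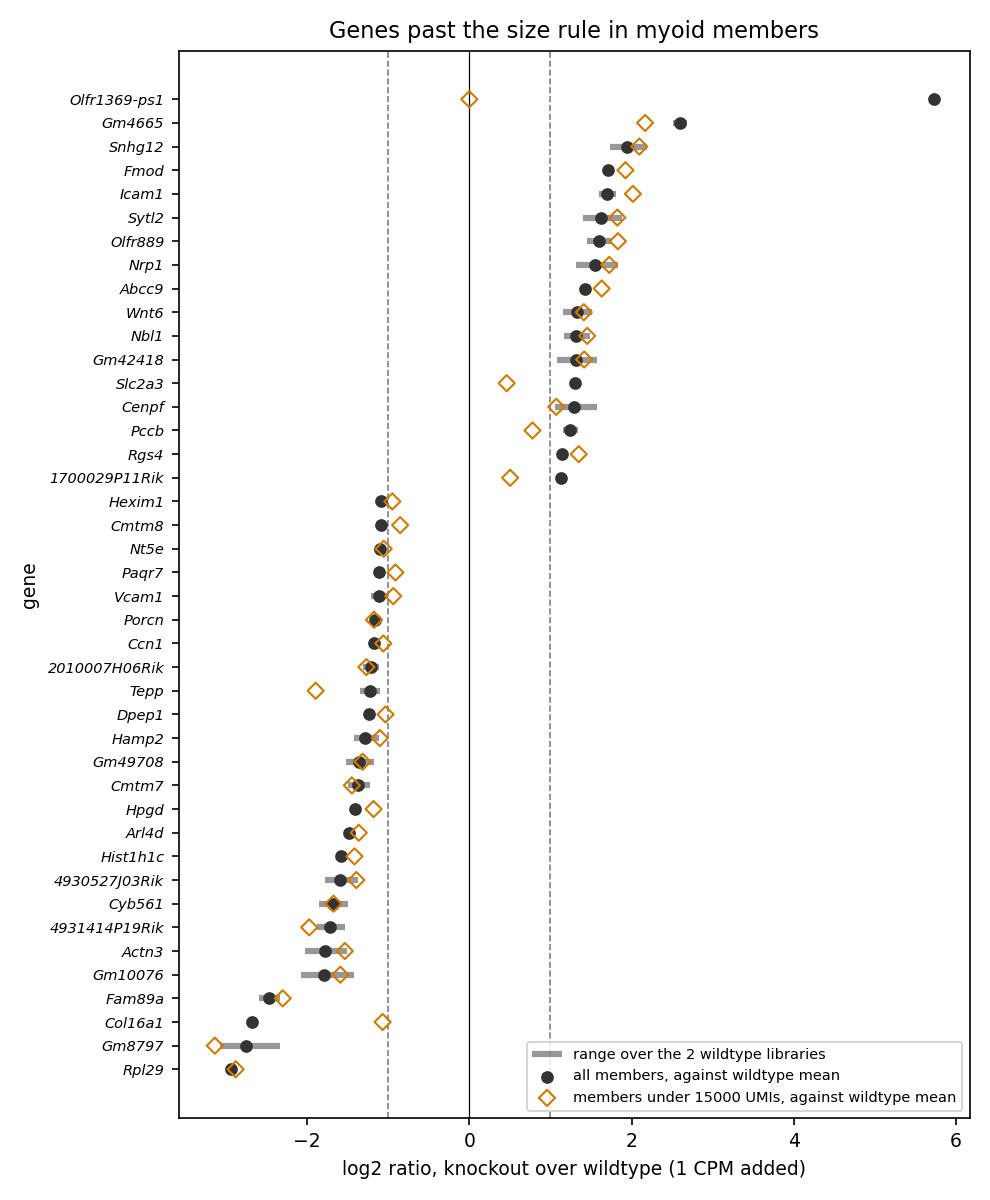
Log2 ratios of the knockout library over wildtype (x axis, 1 CPM added) for the 42 genes past the size rule (y axis). Dots are all members against the wildtype mean, grey bars span the ratios against the 2 wildtype libraries, and open diamonds are members under 15000 UMIs; Olfr1369-ps1 drops from 5.73, which rests on 0 wildtype UMIs and the added 1 CPM, to 0, Col16a1 moves from −2.67 to −1.07, and most other genes change little.

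12 further genes passed only in members under 15000 UMIs. Klf2, a transcription factor of quiescence and flow response, stood there at 449, 350.3 and 1103 CPM, and with all members at 423, 295 and 865 CPM, where its log2 ratios of 1.03 and 1.55 missed the condition set by the difference between the wildtype libraries. The stress-induced factor Atf3 stood at 88.1, 70.8 and 211 CPM and with all members at 83.8, 57.5 and 170.1 CPM. Trnp1 was nearly absent from the wildtype members, with 2, 3 and 40 UMIs in all members, of which 4 in the knockout library lay in deep barcodes. In members under 15000 UMIs it stood at 3.32, 5.59 and 51.4 CPM. Spon1, a secreted matrix protein, stood at 49.8, 59.6 and 12.9 CPM and Ccdc80 at 36.6, 31.7 and 74.3 CPM. Higd1b stood at 9.97, 9.32 and 51.4 CPM, with 33 of its 36 knockout UMIs in the mural barcodes. The remaining genes were Hist1h1e, Lars2, Maged2, Thyn1, Trabd2b and Tspan18.

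None of the 22 contractile genes tested outside the rule passed in either direction, with all members or without the deep ones. Their median log2 ratio against the wildtype mean was −0.15 with all members and 0.01 under 15000 UMIs, beside −0.05 and −0.05 over all genes tested. Likewise none of the 8 basement membrane genes tested passed (medians −0.30 and −0.13), nor any of the 14 interstitial matrix genes (−0.25 and −0.10) or the 7 secreted niche factors (−0.04 and −0.06). All 8 basement membrane genes tested were below both wildtype libraries with all members counted, beside 1584 of all 4068 genes tested, Hspg2 by a log2 ratio of −0.39 and Col4a1 by −0.32 against the wildtype mean. Of the 6 receptors tested none passed (0.17 and 0.34). None of the 4 hedgehog genes passed (−0.56 and −0.34), among them Ptch1, whose values are given above. None of the 5 Wnt pathway genes tested passed (−0.20 and −0.18), with Fzd1 at 59.6, 56.0 and 28.5 CPM. These counts cover the listed genes only. Wnt6, Porcn, Fmod, Col16a1 and Actn3 passed with all members, as given above, and are in none of these lists. Of 10 transcription factors and 17 early response genes tested, none passed with all members (medians −0.05 and 0.10), and Klf2 and Atf3 passed as described. No gene of the Tex10 complex list, which holds 7 genes, reached the 50 CPM needed to be tested.

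**Figure D5:**
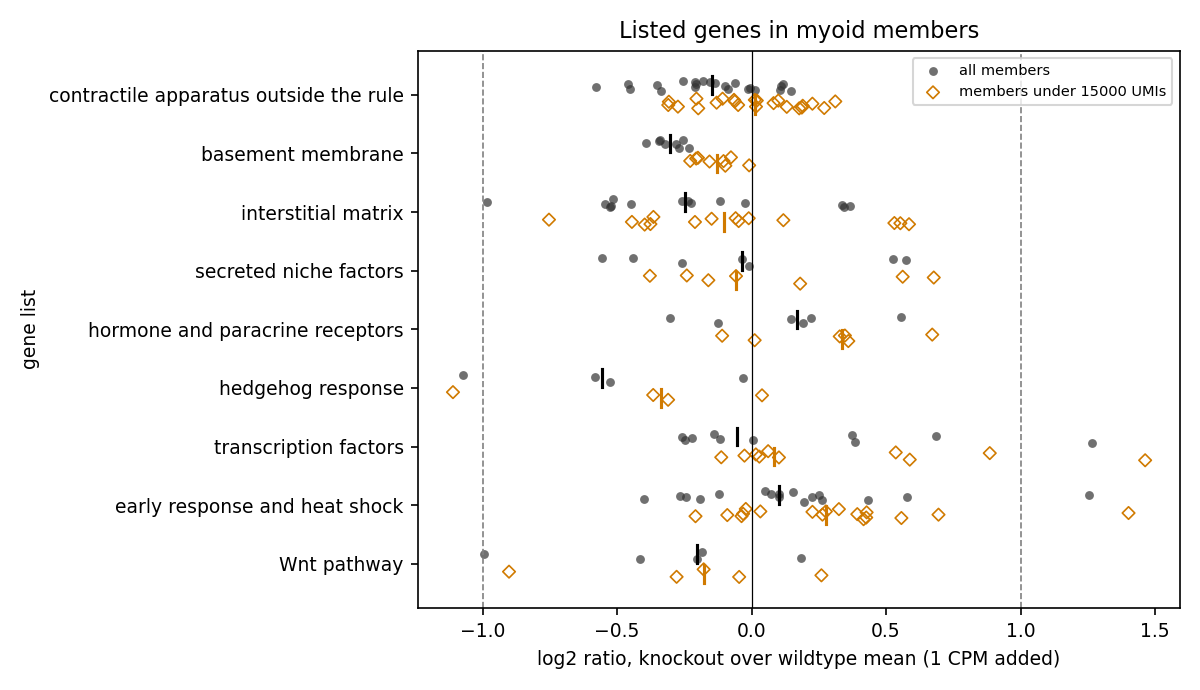
Each point is 1 listed gene that reached 50 CPM in at least 1 library, by its log2 ratio of the knockout library over the wildtype mean (x axis, 1 CPM added), in 9 gene lists (y axis). Dots are all members, open diamonds members under 15000 UMIs and vertical marks the medians, which for contractile genes were −0.15 and 0.01; most points lie between the dashed lines at −1 and 1, and Klf2 and Atf3 lie to the right of them.

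The genes that set the members apart from other barcodes were slightly lower in the knockout library as long as the deep barcodes were counted. Of the 788 genes at least 4-fold over other barcodes, 439 were below both wildtype libraries and 137 above both. Among all 4068 genes tested these counts were 1584 and 1259, but the floors of the sets differed. The 788 had to reach 50 CPM in every library, whereas the 4068 needed it in some library. This kept out of the 788 genes low in wildtype members, such as Fmod, and genes low in knockout members, such as Fam89a. The counts of genes that passed therefore cannot be compared between these sets. With all members none of the 788 passed the rule as higher and 8 passed as lower. Of the 42 genes that passed, 28 had a wildtype mean at least 4-fold over other barcodes, 9 of them higher and 19 lower. The tested genes that met this condition were not counted, so no share stands beside these numbers. A choice by high wildtype level also favours genes lower in the knockout library, so the 9 and 19 cannot be compared. In members under 15000 UMIs 3 of the 788 passed as higher and 5 as lower. The median log2 ratio of the 788 was −0.17 with all members and −0.02 in members under 15000 UMIs. The deep barcodes held 28.7% of knockout member UMIs against 14.6% and 18.8%. The examples with the lowest ratios among the 15 leading genes were Slc38a5, an amino acid transporter, at 1228, 1136 and 659 CPM, Sct at 1687, 1439 and 942 CPM and Ckb, the brain-type creatine kinase, at 1644, 1329.6 and 914 CPM. Without the deep barcodes their log2 ratios against the wildtype mean were −0.64, −0.53 and −0.51, and none of the 3 passed either way.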

How the data were processed

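Single-cell 3′ RNA libraries were made with the 10x Genomics kit from collagenase-dissociated testis, per the labels' protocols. The authors deposited, for each barcode, unnormalized UMI counts of 32285 genes. Cell Ranger 4.0.0, Seurat 4.0.5 and the build mm10 are named in the submitters' processing notes, and whether counting used the strand is not given in the sources used here. Gene positions came from GENCODE M21 on GRCm38, matched by Ensembl identifier for 32158 genes.

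The members were found by the rule given in the results, with 106, 112 and 106 barcodes per library. Their UMIs were summed per library and scaled to 1000000 (CPM), with exact Poisson intervals for levels and exact binomial (Clopper-Pearson) intervals for shares (scipy 1.17.1). These cover counting error only. UMI counts of molecule 3′ ends do not scale with gene length. The members and gene lists were chosen with earlier results of these data known. Genes named were the rule markers, the 12 higher and the 12 lower genes with the largest smaller log2 ratio, listed genes that passed, the most abundant genes of each list, the 15 leading genes over other barcodes, Tex10, and actins, myosins and tropomyosins; others were chosen after their values were seen, retinoic acid genes, calsequestrin and the Sertoli gate included. Doublets were scored with Scrublet in scanpy 1.11.5, whose automatic threshold marked 4, 7 and 1 barcodes, under 0.5% of each library, so the top 8% of scores were left out as an alternative. Words of 31 bases in the last 500 bases of transcripts were compared between genes. TMM factors came from edgeR 4.0.16.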

Additional observations from a re-analysis of the deposited data

How the results depend on the processing

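The count of 42 genes past the size rule became 73 with a floor of 20 CPM, 19 with a floor of 100 CPM and 97 with a 1.5-fold threshold, alternatives that change the rule itself. Leaving out a wildtype library also removes a condition, and the count was then between 101 (without wildtype replicate 1) and 139 (without wildtype replicate 2). In the other 13 settings it lay between 36 and 48, within 1.5 times the reported count, but the genes changed more than the count. Of the 42 genes, 22 were among the 42 that passed without members with 2 or more mural marker UMIs, 23 among 36 without the top 8% of Scrublet scores, 24 among 38 without deep and mural barcodes, and 42 among 47 with germ cell markers and mitochondrial genes out of the totals. With TMM scaling 20 genes were higher and 20 lower. The share of higher genes was 40.5% as reported, 52.5% in members under 15000 UMIs, 28.6% without members with 2 or more mural marker UMIs and 59.0% without wildtype replicate 2.

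The knockout share minus the wildtype mean was −0.441 percentage points. It was −0.412 without members with 2 or more mural marker UMIs, −0.119 among barcodes of at least 5000 UMIs, −6.80 with the somatic gates as denominator, −20.97 with Sertoli barcodes there only from 3000 UMIs and −0.228 with a 5% mitochondrial limit. Leaving out each wildtype library gave −0.461 and −0.421. Of the 24 leading genes that passed, 13 still passed without members with 2 or more mural marker UMIs, 15 without the top Scrublet scores, 17 without deep and mural barcodes, 18 under 15000 UMIs and 11 with a floor of 100 CPM. Of their 336 alternative ratios 1 changed sign: Abcc9 went to −0.90 without members with 2 or more mural marker UMIs, a filter that counts Abcc9 itself and so removes its UMIs by construction. Settings by depth (15000 UMIs, and 3000 for Sertoli barcodes) and by 10 mural UMIs were chosen after the data were seen. No paired analysis was possible because the knockout group is 1 library. At 661097 to 981997 UMIs per library, genes of a few UMIs, such as Tex10, Gdnf and Lif, could not show a 2-fold difference.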

Other observations

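Some low genes of the members fell under the 50 CPM floor and entered no comparison. Cxcl12, a chemokine, gave 2, 0 and 17 UMIs in the members, of which 2 in the knockout library came from the mural barcodes and at most 2 from any 1 barcode. Kitl, the KIT ligand, gave 9, 9 and 26 UMIs, and Lef1, a Wnt pathway transcription factor, gave 1, 0 and 8. Lrp5, a Wnt co-receptor, gave 8, 4 and 0 UMIs. Wt1, a Sertoli cell transcription factor, gave 0, 4 and 0.

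The linker histone genes Hist1h1c and Hist1h1e stood in opposite order in the members: Hist1h1c at 169, 169 and 56.0 CPM and Hist1h1e at 8.52, 9.08 and 40.7 CPM. In the other kept barcodes they stood at 7.06, 6.91 and 11.7 CPM and at 7.94, 6.26 and 14.7 CPM. Of the words in the 3′ end of Hist1h1e, 99.1% are shared with other genes, so its count is uncertain.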
